A study of Mus musculus with 4 samples.

Results

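The genes described here are the 6 Dlx genes and the 3 Sp genes with known roles in limb ectoderm: Dlx1, Dlx2, Dlx3, Dlx4, Dlx5, Dlx6, Sp6, Sp8 and Sp9. They are 9 of the 22238 protein-coding genes of the annotation, and they were chosen by name, not by a value measured here. Chromatin accessibility was measured by ATAC-seq, in which the Tn5 transposase cuts and tags open DNA, in fixed cells of mouse embryonic limbs, fore and hind in one sample, at stage E11.5. All 4 libraries came from the strain labelled c57bl6.J X 129S6.sv. They comprised 2 libraries from mutant embryos with a stop cassette insertion (libraries 1 and 2) and 2 from wild-type embryos (libraries 1 and 2). Where the cassette sits, its zygosity, the number of embryos per library and whether libraries came from separate litters are not given in the sources used here, so the p-values below measure only the spread between these libraries, which may be technical. Peak names in both wild-type lists carry the same replicate number, although the titles number these libraries 1 and 2, so the wild-type libraries may be parts of 1 sample.

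Dlx genes encode homeodomain transcription factors related to the fly gene Distal-less, and they lie in the genome as convergent pairs that share regulatory sequence. Sp6, Sp8 and Sp9 encode zinc finger factors that bind GC-rich boxes. In the limb bud both families act in the apical ectodermal ridge, the strip of thickened ectoderm whose Fgf8 signal keeps the bud growing. Ridge and surface ectoderm make up a minority of limb bud cells, most of which are mesenchyme. In such a mixture, a weak peak can come from few cells with open chromatin or from many cells with little of it, and these cannot be told apart.

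One list of peak summits was deposited per library, each a position of 1 bp with a score that behaves as −log10 of a q-value. The stop cassette lists held 79083 and 107827 peaks and the wild-type lists 51701 and 68471. The files hold no read counts, so the depth is unknown. A score was therefore used only as a percentile within its own list, from the weakest peak at 0 to the strongest at 100, and values of 4 libraries are given below in the order stop cassette 1, stop cassette 2, wild type 1, wild type 2. Among promoters fixed as tissue markers, those of limb mesenchyme were in all 4 lists for 8 of 12 genes and those of surface ectoderm for 3 of 11, against 57.6% of all protein-coding genes. The count was 2 of 6 for Dlx-expressing brain interneurons, 1 of 5 for blood, 1 of 6 for endothelium and 0 of 6 for liver, whose promoters were in no list. The medians of the mean percentile were 48.3 for mesenchyme, 35.2 for interneurons, 28.7 for blood, 4.93 for surface ectoderm and 0 for endothelium and liver. By these medians surface ectoderm ranked below mesenchyme, interneurons and blood, and above endothelium and liver. The surface ectoderm promoters in all 4 lists were those of Epcam, Cdh1 and Krt18, whose mean percentiles were 75.7, 42.3 and 56.1, while Krt5, Krt14, Cldn6 and Grhl3 were in none.

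In the lists as deposited, the Dlx and Sp promoters fell into 3 sets. A promoter was counted as accessible in a list when it had a summit no more than 1 kb from any annotated start of the gene. Sp9, Dlx6 and Dlx1 had such a summit in all 4 lists, Dlx5, Sp8, Dlx2 and Dlx3 in 3 lists, and Dlx4 and Sp6 in none. Over all protein-coding genes, 57.6% had a promoter summit in every list as deposited and 34.4% in none. The 9 genes lay below the genome's share on both counts. By list, 6, 7, 5 and 6 of the 9 genes had a promoter summit, against 61.6%, 64.5%, 59.1% and 61.6% of all genes. The 9 genes thus lay above the genome's share in every list but wild type 1.

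The accessible promoters ranked low for promoters of their kind. Sp9, Dlx6 and Dlx1 had mean percentiles of 75.3 ± 11.6, 74.2 ± 11.6 and 73.7 ± 14.0 (SD over 4 lists). Among the 12799 genes with a promoter summit in all 4 lists, the median of the mean percentile was 89.7 and the lower quartile 79.3. All 3 genes therefore lay below the lower quartile of such promoters. With a list that has no summit counted as 0, Dlx5 had a mean of 34.5 ± 29.1, Sp8 29.4 ± 22.0, Dlx2 22.5 ± 24.6 and Dlx3 21.0 ± 23.5 (SD over 4 lists). These 4 neighbours in the order differed by less than the spread over lists, as did the 3 genes above them.

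**Figure D1:**
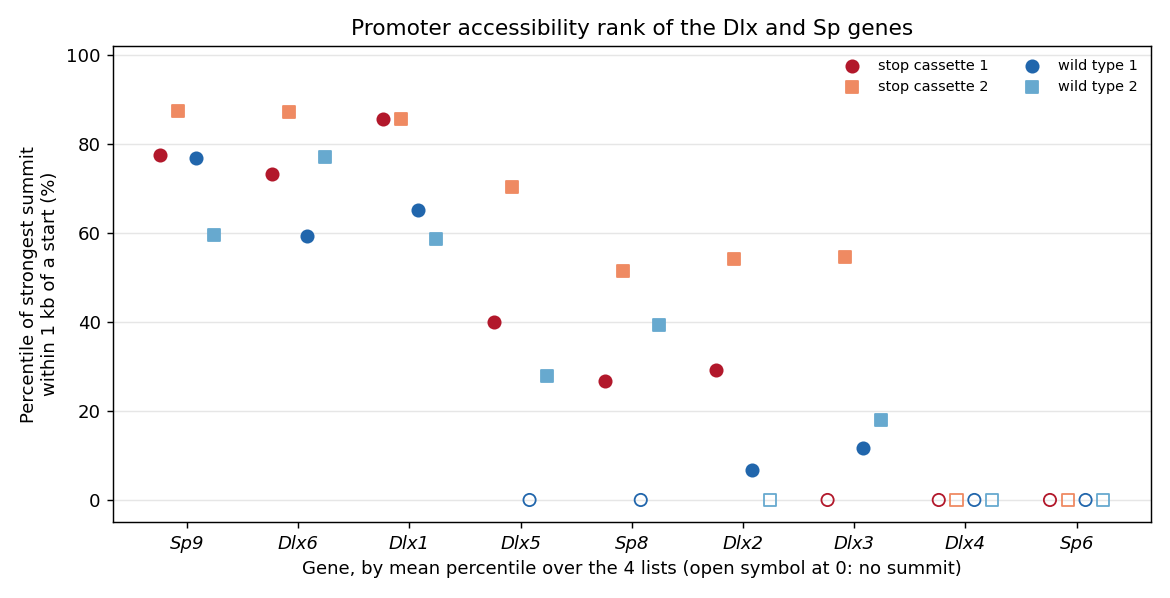
The vertical axis gives the percentile, within its own list, of the strongest summit within 1 kb of a start of each gene, and the horizontal axis the 9 genes ordered by their mean. Each symbol is 1 library, and open symbols at 0 mark a list with no summit: Sp9, Dlx6 and Dlx1 are filled in all 4 lists, and Dlx4 and Sp6 are open in all 4.

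Dlx6 (ENSMUSG00000029754.7, chr6:6813334-6818568 of mm9, plus strand) and Dlx5 (ENSMUSG00000029755.9, chr6:6827805-6832085, minus strand) are needed together for the ridge, and loss of the human pair's region causes split hand/foot malformation. Dlx6 had 2 accessible regions at its 5′ end. The stronger lay 443 bp upstream of the Dlx6 gene start at chr6:6812455-6813188, in an intron of the antisense transcript Dlx6os1, and ranked at 73.1, 77.9, 59.3 and 77.1. The other, chr6:6813261-6814096, covered coding sequence of Dlx6 and ranked at 46.7, 87.2, 37.5 and 45.3, so stop cassette 2 was the only list in which it was the stronger of the pair. The sequence below is shown because the upstream region was the most evenly ranked accessible site at either gene. It is 300 bp of the plus strand centred on the strongest summit, chr6:6812742-6813041 of mm9, and capitals mark a GC box (GGGCGG), the type of site that Sp factors bind.
Upstream of Dlx6: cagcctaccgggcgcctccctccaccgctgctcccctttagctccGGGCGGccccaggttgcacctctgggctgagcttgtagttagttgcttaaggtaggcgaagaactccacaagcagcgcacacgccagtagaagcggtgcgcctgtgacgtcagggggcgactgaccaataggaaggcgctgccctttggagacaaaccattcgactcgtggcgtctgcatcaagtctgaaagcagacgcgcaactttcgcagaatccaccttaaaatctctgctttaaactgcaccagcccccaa

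The Dlx5 start was weaker and less regular. Its promoter region, chr6:6831387-6832412, ranked at 40.1 and 70.2 in the stop cassette lists, was not listed in wild type 1 and ranked at 27.8 in wild type 2. The nearest summit of wild type 1 lay 3068 bp upstream of the Dlx5 start, at a percentile of 19.6. No region of any list lay in the 9236 bp between the ends of Dlx5 and Dlx6, where conserved enhancers of the pair are known from other tissues.

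Limb enhancers of this pair lie in neighbouring genes, so 500 kb on either side were included. The window held 19 regions, formed by extending each summit of the 4 lists by 250 bp on each side and merging those that overlapped. That is fewer than at most genes: over all protein-coding genes the median was 43 regions within 500 kb (quartiles 28 and 59), and 44 for both Dlx1 and Dlx2. Of the 19 regions, 5 were in all 4 lists, against a median of 15 per gene (quartiles 9 and 23). Of these, 4 were promoters: both regions at Dlx6, the start of Shfm1, which encodes a small proteasome subunit, at a mean percentile of 92.6, and the start of Acn9, an assembly factor of the respiratory chain, at 96.6.

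A lone distal region of the 500 kb window was in all 4 lists. It was intergenic at chr6:6735929-6736575, 77.0 kb upstream of the Dlx6 start towards Shfm1, and ranked at 21.6, 78.4, 57.1 and 74.4. Stop cassette 1 was low and the other 3 lists lay between 57.1 and 78.4. At equal length, with each list reduced to its 51701 highest-scoring peaks, it was no longer in stop cassette 1. Its sequence is shown as the distal element of the pair that all lists held as deposited, as 300 bp at chr6:6736150-6736449 of mm9, plus strand. None of the motifs searched is in it, so no letter is in capitals.
Between Shfm1 and Dlx6: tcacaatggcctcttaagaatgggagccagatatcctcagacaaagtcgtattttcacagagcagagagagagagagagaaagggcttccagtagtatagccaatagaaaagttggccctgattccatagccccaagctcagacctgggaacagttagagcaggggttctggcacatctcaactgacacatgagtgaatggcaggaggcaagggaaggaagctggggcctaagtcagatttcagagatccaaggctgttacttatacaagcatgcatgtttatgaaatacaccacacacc

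Beyond the window, at 857 kb upstream of Dlx6, Dync1i1 carried the strongest shared non-promoter region examined around the pair. Dync1i1 encodes an intermediate chain of the dynein motor, and coding exons near its 3′ end have been described in the literature as limb enhancers of Dlx5 and Dlx6. The region chr6:5955621-5956535 ranked at 85.4, 84.2, 86.4 and 92.7, high in every library. It reaches into coding exon 15 of 17 (chr6:5956270-5956410, transcript ENSMUST00000115555.1). Its strongest summits, however, lay in the intron before that exon, 399, 388, 381 and 394 bp outside it. Wild type 1 had a second summit inside the exon, at a percentile of 64.5, and stop cassette 1 had one 2 bp outside it, at 56.8. Both stretches are shown to place the summits against the exon. The first is 300 bp of the intron at chr6:5955727-5956026 of mm9, plus strand, with a GC box in capitals, read here on the opposite strand as CCGCCC. The second is chr6:5956240-5956440, plus strand, 201 bp with the 141 bases of exon 15 in capitals.
Dync1i1 intron before exon 15: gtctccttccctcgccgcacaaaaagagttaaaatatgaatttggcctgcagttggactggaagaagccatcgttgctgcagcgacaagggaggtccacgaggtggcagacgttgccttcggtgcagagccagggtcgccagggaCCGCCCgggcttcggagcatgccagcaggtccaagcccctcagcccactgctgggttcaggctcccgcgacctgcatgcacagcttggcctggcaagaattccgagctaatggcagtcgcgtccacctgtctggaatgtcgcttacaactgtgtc
Dync1i1 exon 15: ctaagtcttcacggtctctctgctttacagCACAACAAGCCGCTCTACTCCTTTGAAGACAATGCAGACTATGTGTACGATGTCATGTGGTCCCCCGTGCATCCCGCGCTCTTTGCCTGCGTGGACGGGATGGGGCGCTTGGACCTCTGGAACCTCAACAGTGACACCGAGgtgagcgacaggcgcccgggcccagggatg

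Exon 17, the last of Dync1i1, was accessible in stop cassette 2 and wild type 1 only. Its region, chr6:5977381-5978260, ranked at 34.7 and 66.6 there, so it followed neither genotype. In Slc25a13, which encodes a mitochondrial aspartate and glutamate carrier, a region over coding exon 8 (chr6:6063703-6064549) was in both stop cassette lists, at 19.0 and 76.9, and in neither wild-type list. In Dync1i1, the intron regions chr6:5676349-5676875 and chr6:5976855-5977365 had the same pattern and were described after their values were seen. Over the genome 10.02% of all regions had it in the lists as deposited. No equal-length values are given here for these regions, so an effect of list length cannot be set aside. The start of Slc25a13 was in all 4, at 96.7, 98.4, 94.9 and 91.5. Across the gene bodies, 2 of 14 regions in Dync1i1 and 2 of 9 in Slc25a13 were in all 4 lists, and the start of each gene was among them. The other shared region of Slc25a13 lay in an intron, chr6:6157295-6158247, at 91.1, 83.3, 66.6 and 55.5. It was described after its values were seen. The plot of the Dlx5 and Dlx6 surroundings shows the shared sites as columns of 4 symbols.

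**Figure D2:**
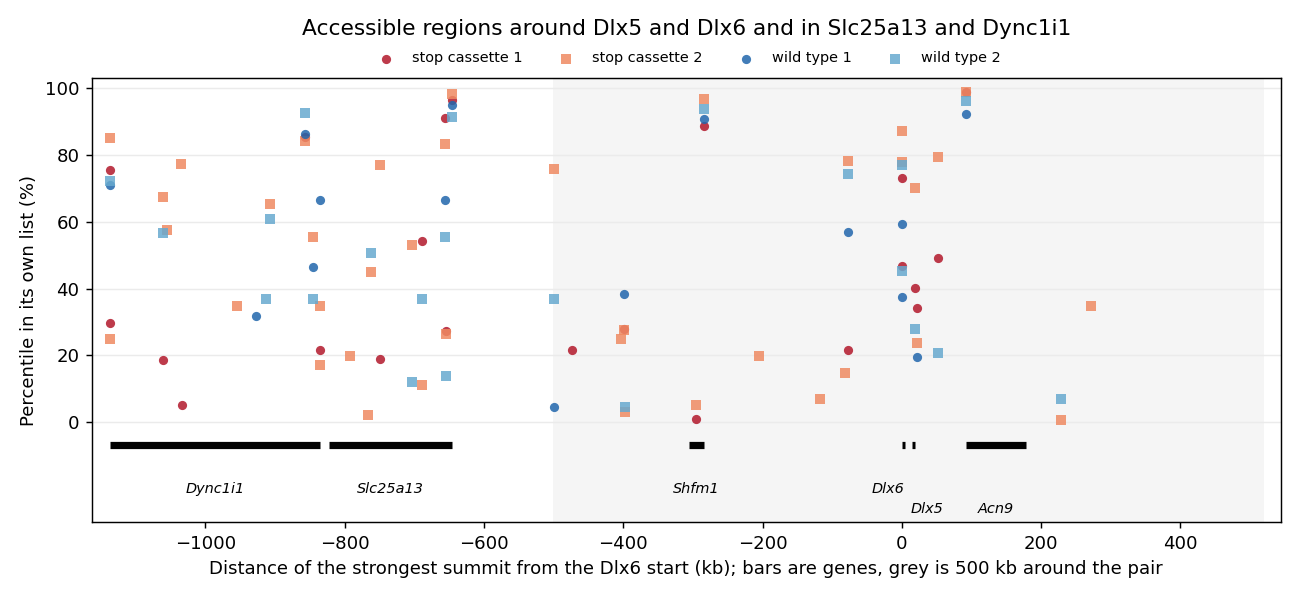
The horizontal axis is the distance in kb of a region's strongest summit from the Dlx6 start, and the vertical axis its percentile in each list; black bars are genes and grey marks 500 kb around Dlx5 and Dlx6. Columns with all 4 libraries stand at Dlx6, at 77.0 kb upstream, at the starts of Shfm1 and Acn9, and at 857 kb upstream in Dync1i1, where the 4 symbols lie between 84.2 and 92.7.

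Dlx1 (ENSMUSG00000041911.3, chr2:71366170-71372038, plus strand) and Dlx2 (ENSMUSG00000023391.7, chr2:71381466-71384811, minus strand) act in forebrain interneurons and in branchial arch and limb ectoderm. The Dlx1 promoter region, chr2:71367094-71368534, ranked at 85.7 and 85.6 in the stop cassette lists and at 65.0 and 58.5 in the wild-type lists. Its strongest summits lay 138, 114, 110 and 158 bp upstream of an annotated start, one of 6 of the gene. The position was thus alike in the 4 lists while the rank was not. That start lies inside the gene, and no summit of any list lay within 1 kb of the Dlx1 gene start itself. The highest-ranked summit lay 1.602 kb downstream of the gene start. Dlx2 differed from its partner. Its promoter region, chr2:71384111-71385150, ranked at 29.3, 54.2 and 6.63 and was not listed in wild type 2. The nearest summit of wild type 2 lay 1319 bp upstream of the Dlx2 start and ranked at 80.3, in a region (chr2:71385877-71386380) that was also at 67.2 in stop cassette 1 and 52.0 in wild type 1.

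Around Dlx1 and Dlx2, 5 of 15 regions within 100 kb were in all 4 lists, and 3 of the 5 were distal, more than 1 kb from any annotated start. The highest ranked of these was in an intron of Metap1d, a gene for a mitochondrial methionine aminopeptidase, 66.4 kb upstream of Dlx1 at chr2:71299249-71300155. It stood at 88.4, 92.0, 76.2 and 56.6, with wild type 2 the lowest. The others were intergenic and upstream of Dlx2, at chr2:71418954-71419714 with 21.6, 75.7, 58.1 and 74.4, and at chr2:71436765-71437387 with 69.8, 75.7, 46.6 and 60.9. The Metap1d sequence is shown because this region outranked both promoters on average. It is chr2:71299619-71299918 of mm9, plus strand, with a GT box in capitals, another site of Sp-type zinc fingers, written CACACCC on the opposite strand.
Metap1d intron: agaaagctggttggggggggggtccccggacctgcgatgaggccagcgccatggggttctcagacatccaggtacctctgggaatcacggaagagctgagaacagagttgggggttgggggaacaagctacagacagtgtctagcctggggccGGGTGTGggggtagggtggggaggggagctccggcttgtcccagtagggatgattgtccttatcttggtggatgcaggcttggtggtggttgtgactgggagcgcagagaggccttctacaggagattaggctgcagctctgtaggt

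Dlx3 (ENSMUSG00000001510.7, chr11:94981403-94986610, plus strand), which acts in epidermis, placenta and teeth, had a weak promoter. Its region, chr11:94981136-94981880, was not listed in stop cassette 1 and ranked at 54.5, 11.6 and 18.0 in the other lists. Those 3 summits lay within 19 bp of the start. In stop cassette 1 the nearest summit was 6669 bp downstream. Dlx4 (ENSMUSG00000020871.7, chr11:95001770-95007577, minus strand) had no promoter summit in any list. Its nearest summits were 2386, 19216, 25693 and 19088 bp away, and the closest, in stop cassette 1 at a percentile of 55.4, lay inside the gene.

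The pair shared 1 prominent distal region, and 5 of 19 regions within 100 kb of either gene were in all 4 lists. This intergenic region was at chr11:95071513-95072548, 64.6 kb upstream of Dlx4, and ranked at 60.7, 88.5, 70.6 and 82.9. It is printed as the strongest distal element of a pair whose own starts were weak or closed. The 300 bp are chr11:95072072-95072371 of mm9, plus strand, with a GC box in capitals.
Upstream of Dlx4: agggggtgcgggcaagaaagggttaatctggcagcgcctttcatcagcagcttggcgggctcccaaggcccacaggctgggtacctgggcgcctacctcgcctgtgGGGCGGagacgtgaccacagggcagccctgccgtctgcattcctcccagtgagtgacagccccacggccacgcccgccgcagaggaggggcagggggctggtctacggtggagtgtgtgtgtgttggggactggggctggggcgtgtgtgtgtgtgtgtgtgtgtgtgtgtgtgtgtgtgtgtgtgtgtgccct

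Sp8 (ENSMUSG00000048562.5, chr12:120084802-120091051, plus strand) is needed for the ridge to mature and to keep expressing Fgf8. Its promoter region, chr12:120085010-120085945, ranked at 26.8 and 51.5 in the stop cassette lists, was absent from wild type 1 and ranked at 39.2 in wild type 2. The chromatin around it was more open than its start. A region in intergenic sequence 8.935 kb downstream of the gene start, chr12:120092813-120094093, ranked at 89.0, 96.8, 91.2 and 88.4. It had the highest mean of all distal regions named within 100 kb of the 9 genes, at 91.3. Upstream, a region at chr12:120074801-120075730, 9072 bp before the nearest start, ranked at 68.0, 81.0, 67.3 and 76.6. Of 12 regions within 100 kb of Sp8, 7 were in all 4 lists and 6 of the 7 were distal, the most at any of the 6 loci. The downstream sequence, chr12:120093588-120093887 of mm9, plus strand, is shown as the strongest distal site; it holds none of the motifs searched.
Downstream of Sp8: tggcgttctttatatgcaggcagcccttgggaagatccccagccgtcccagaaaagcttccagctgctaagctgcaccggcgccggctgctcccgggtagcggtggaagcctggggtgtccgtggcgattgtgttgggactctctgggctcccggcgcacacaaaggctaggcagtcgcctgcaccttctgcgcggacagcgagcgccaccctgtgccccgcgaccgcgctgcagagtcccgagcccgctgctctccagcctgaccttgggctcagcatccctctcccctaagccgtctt

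Sp9 (ENSMUSG00000068859.5, chr2:73109982-73122763, plus strand), which acts with Sp8 in the ridge, had the highest promoter mean of the 9 genes. Its region, chr2:73109145-73110248, ranked at 77.5, 87.3, 76.8 and 59.4, with its strongest summit within 75 bp of a start in each list. Sp9 also had an accessible region inside its own intron, chr2:73116474-73117435, at 75.8 and 72.7 in the stop cassette lists and 42.1 and 29.1 in the wild-type lists. At equal length it ranked at 63.04 and 42.97 in the stop cassette lists and at 42.10 and 6.13 in the wild-type lists. Stop cassette 2 and wild type 1 were then nearly equal, and no genome share was counted for such an order of regions. That region, like the other sites given beside the highest-ranked one of a locus, was described after its values were seen. The distal region with the highest mean, chr2:73197930-73198521, lay 88.3 kb downstream in an intron of Gpr155 and ranked at 97.0, 91.4, 46.6 and 72.3. Of 9 regions within 100 kb of Sp9, 5 were in all 4 lists.

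Sp6 (ENSMUSG00000038560.7, chr11:96874708-96886048, plus strand), also called epiprofin and known for its role in teeth, hair and ridge, had no promoter summit in any list. The nearest summits were 3216, 3235, 7482 and 3233 bp downstream of a start. The region over its coding exon, chr11:96883013-96883972, was at 68.8 and 49.6 in the stop cassette lists and at 9.32 in wild type 2. Sp6 nevertheless lay in the most densely accessible surroundings of the 9 genes, with 27 regions within 100 kb, 7 of them in all 4 lists, against a median of 11 and 4 over all genes. Other genes start there, and 6 of the 7 were at annotated starts, including Sp2 at a mean percentile of 93.4. The remaining one was over an exon of Prr15l, chr11:96796189-96796710, at 92.8, 90.8, 46.6 and 68.6.

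**Figure D3:**
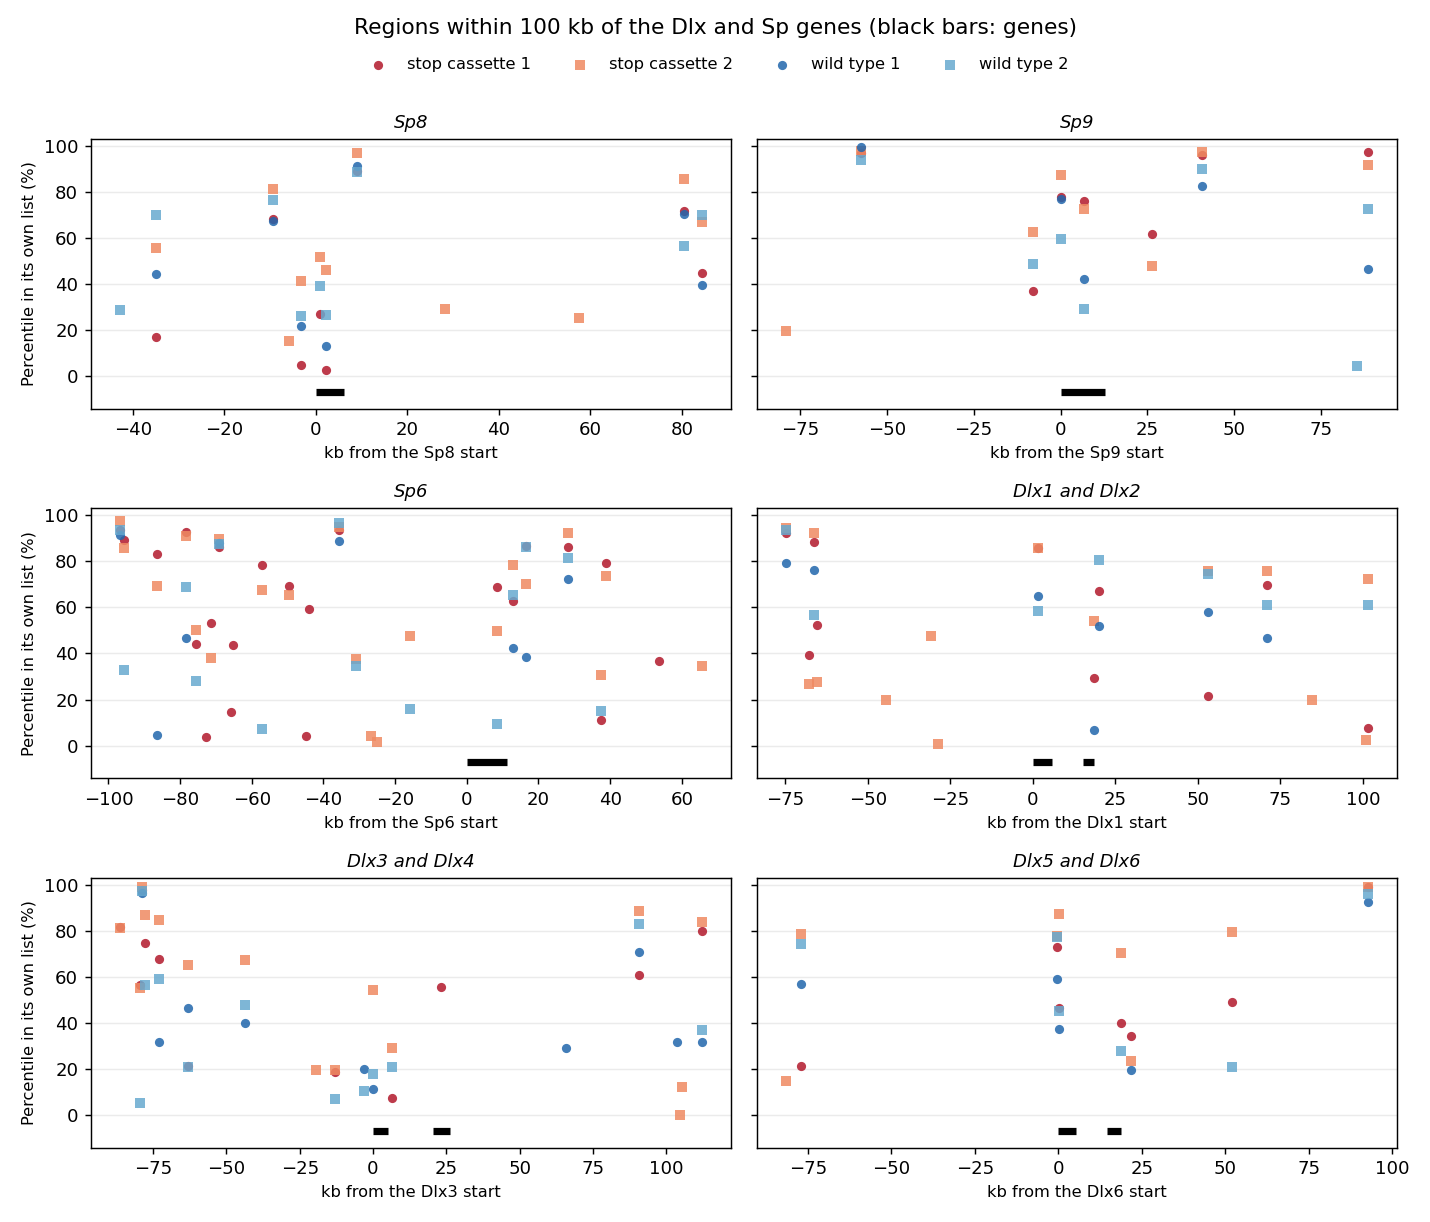
Each panel shows the regions within 100 kb of a gene or gene pair, with distance from the named start in kb on the horizontal axis and the percentile in each list on the vertical axis; black bars are the genes and each symbol is 1 library. The Sp8 region at 8.935 kb stands between 88.4 and 96.8 in the 4 lists while the symbols over the Sp8 start are at or below 51.5.

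Distal sites outranked the promoter at most of these genes. In every list, the strongest distal summit within 100 kb had a higher percentile than the strongest promoter summit for 7 of 9 genes: Dlx1, Dlx2, Dlx3, Dlx4, Dlx5, Sp6 and Sp8. Dlx4 and Sp6 are among them by having no promoter summit. Dlx1 and Dlx2 had the same strongest distal percentiles (88.4, 92.0, 76.2 and 80.3), so genes of a pair are not separate observations. In wild type 2 that summit, at 80.3, lay only 1319 bp upstream of the Dlx2 start. Over all protein-coding genes this held for 28.5%. Sp9 met it in 3 lists and Dlx6 in 0, so at Dlx6 the promoter outranked every distal summit in each library. Starts of other genes are left out of this measure, and that of Acn9, within 100 kb of Dlx6, ranked higher in all 4 lists. The 9 genes were chosen with earlier results of these data known, and no test was made of this count.

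The starts of the 9 genes were not poor in CpG, apart from Sp6. Within 500 bp of the gene start, the ratio of observed to expected CpG was lowest at Sp6, at 0.154, and highest at Dlx2, at 0.761. The median over the 9 genes was 0.696, against 0.549 over all protein-coding genes. Dlx4, with no promoter summit, had a ratio of 0.695, next to 0.696 for Dlx3.

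Motifs were counted in 300 bp around the strongest summit of each region in all 4 lists, on both strands: 33 regions near the 9 genes, of which 16 were distal, and 23864 over the genome, those of the 23894 that lie on placed chromosomes. GC boxes (GGGCGG) were in 17 of 33 regions, or 51.5%, against 49.0% of all such regions. They were in 5 of the 16 distal ones, or 31.25%, against 21.7% of distal regions over the genome. The homeodomain core TAATTA was in 1 of 33, or 3.03%, against 4.61%, and in 0 of the 16 distal ones, against 8.39% of distal regions over the genome. The GT box CACACCC was in 2 of 33 and 8.33% of all, and in 2 of the 16 distal ones (12.5%) against 8.32% of distal regions. The TCF/LEF letters CTTTGAT, for the factors of Wnt signalling, were in 0 of 33 and 2.98% of all. A p63-type pattern, CATG repeated after 6 bases, CATGNNNNNNCATG, was in 0 of 33 and 0.365% of all. A match or its absence describes only the letters in these windows, and with 33 regions the expected counts of the rarer motifs are small.

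Among related genes, the broadly expressed Sp factors ranked high. Of the other 6 Sp family genes, Sp1, Sp2, Sp3 and Sp4 had promoter summits in all 4 lists, at mean percentiles of 97.8, 93.4, 86.9 and 98.3. Sp5 was in none, and Sp7, the bone factor osterix, was in stop cassette 1 alone, at 12.4. Of 22 genes fixed for limb ectoderm and ridge signalling, 21 were found by symbol. Their promoters were in all 4 lists for 10, in some lists for 7 and in none for 4, which were Fgf4, Fgf17, Grhl3 and Wnt10a. Over all genes the shares were 57.6% in all 4 lists and 34.4% in none, so both were lower in this list. The median of the mean percentile over the 21 was 14.0, against 67.7 over all genes. Members of the list differed widely. Fgf8, the main ridge signal, was at 30.1 in stop cassette 2 alone, and Trp63, a master regulator of ectoderm, at 19.7 in the same list alone. Rspo2, Bmp7, Cd44 and Fgf9 were in all 4 lists, at mean percentiles of 73.0, 72.6, 60.8 and 56.5, and so was Jag2, between 36.0 and 63.9. Msx2, which is active in ridge and mesenchyme, was in all 4, at 68.7, 85.0, 37.1 and 77.1. By contrast 6 of 7 neighbours of Dlx5 and Dlx6 were in all 4 lists, with a median of 91.7, and the exception was Tac1, a neuropeptide gene, with 2 lists.

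For each gene with a promoter summit, the protein-coding gene with the most alike profile was taken as the one with the smallest Euclidean distance, in percentile points over the 4 lists, more than 1 Mb away. These were Ier2 for Dlx6 (distance 2.89), Pou3f2 for Sp9 (3.93), Dedd2 for Dlx1 (3.43), Cd14 for Dlx5 (6.01), Anxa2 for Sp8 (2.69), Chrm5 for Dlx2 (2.43) and Spata18 for Dlx3 (5.75). With 4 values per gene and 22238 genes, such matches are a description of rank only.

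The comparison of genotypes asked whether the stop cassette changed accessibility at these genes. In the lists as deposited, promoter ranks of 4 of the 7 genes with a promoter summit were higher in both stop cassette lists than in both wild-type lists: Dlx1, Dlx2, Dlx5 and Sp9. The genome's share with the stop cassette lists higher was 39.7% of the 14578 genes with a summit in some list. None of the 7 had the opposite order, for which no genome share was counted in the lists as deposited. The differences of the group means were 23.8 percentile points for Dlx1, 38.4 for Dlx2, 41.2 for Dlx5 and 14.3 for Sp9 (exact two-sided permutation test, p = 0.333 for each). With 2 libraries against 2, that is the smallest p the design allows, so no comparison here could pass 0.05. The lists themselves differ in length, both stop cassette lists being longer, and an effect of the cassette and one of list length cannot be told apart in the lists as deposited.

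At equal length, the order held for Dlx1 and Dlx5 only. Dlx1 then ranked at 78.1, 70.0, 65.0 and 45.1, a difference of 19.0. Dlx5 ranked at 8.34 and 37.9 in the stop cassette lists, was not listed in wild type 1 and ranked at 4.44 in wild type 2, a difference of 20.9. These 2 of the 7 genes with a promoter summit (28.6%) compare with 19.1% of 13966 such genes over the genome in this direction and 19.5% in the opposite one, which 0 of the 7 showed. No test was made of this count. For Dlx2 the difference changed sign to -1.08, and for Sp9 it shrank to 8.03 with overlapping groups. Dlx6 differed by 1.61, Dlx3 by -3.25 and Sp8 by -9.75, where wild type 2 alone kept a Sp8 promoter summit, at 19.5.

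The number of promoter summits over the 9 genes was 12, 19, 7 and 9. The means were 15.5 ± 4.95 with the cassette and 8.0 ± 1.41 without it (SD over 2 libraries, exact permutation p = 0.333). At equal length the numbers were 5, 8, 7 and 7, and the difference reversed to -0.5 (exact permutation p = 1). The median best promoter percentile over the 9 genes behaved likewise. It was 29.3, 54.5, 6.63 and 27.8 as deposited, a difference of 24.6 (exact permutation p = 0.333), and -3.00 at equal length (exact permutation p = 0.667). Neither promoter measure kept its direction at equal length.

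Within 100 kb of the genes the lists held 107, 135, 59 and 80 summits, with means of 121 ± 19.8 and 69.5 ± 14.8 (SD over 2 libraries, exact permutation p = 0.333). As a share of its list this was 0.135% (95% Wilson interval 0.112% to 0.163%), 0.125% (0.106% to 0.148%), 0.114% (0.0885% to 0.147%) and 0.117% (0.0939% to 0.145%). The intervals cover counting error only, and all 4 overlap. The shares differed by 0.0148 percentage points (exact permutation p = 0.333). At equal length the lists held 69, 64, 59 and 59 summits, a difference of 7.5 (exact permutation p = 0.333).

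By gene, both stop cassette lists held more summits within 100 kb than both wild-type lists at 7 of 9 genes, all but Dlx4 and Sp8, against 61.2% of genes over the genome. Genes of a pair are not separate observations here. Dlx1 and Dlx2 had the same counts (17, 23, 8 and 9), and so did Dlx5 and Dlx6 (13, 15, 8 and 11). At equal length this remained for 1 of 9 genes, Sp6, against 15.7% of genes over the genome. The opposite order was shown by 1 of 9, Sp8, against 11.4%. Neither count lay above the genome's share, so they do not set these genes apart. The 2 loci had opposite orders. Around Sp6 the equal-length lists held 27 and 21 summits with the cassette and 14 and 16 in wild type. Around Sp8 they held 5 and 8 with the cassette and 11 and 12 in wild type. At the Sp6 locus these summits formed 19 regions, and the nearest start of 18 was that of another gene. The difference between the 2 loci was not tested.

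**Figure D4:**
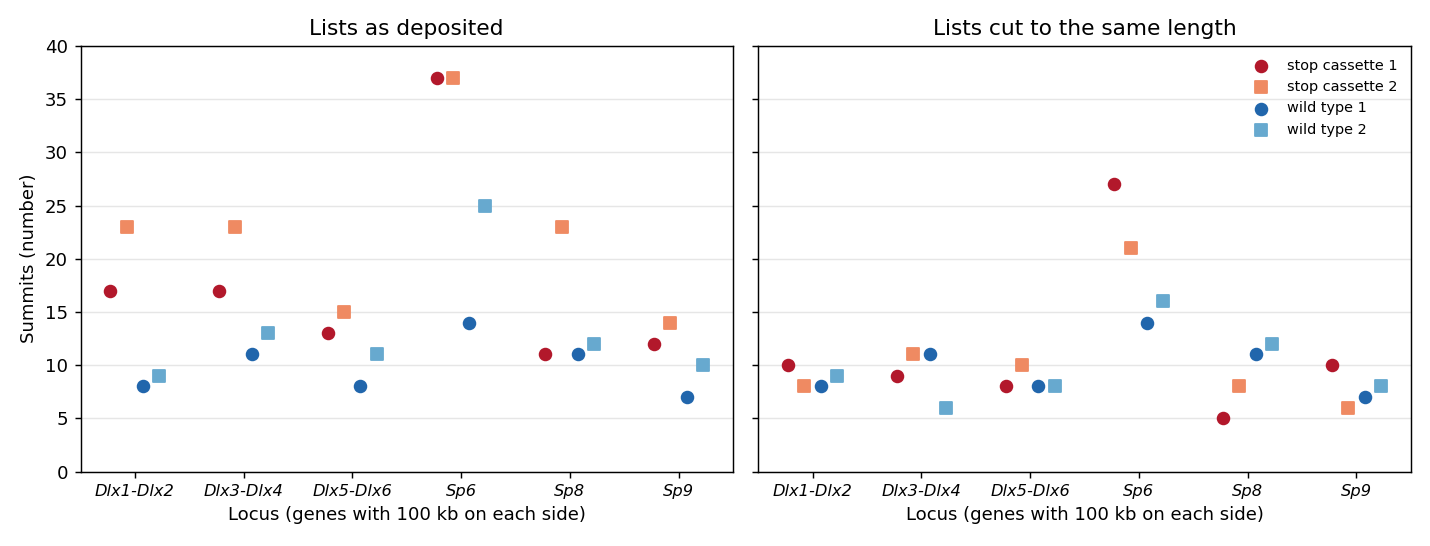
The vertical axis is the number of summits in each locus with 100 kb on each side, for the lists as deposited on the left and for lists of 51701 peaks on the right; each symbol is 1 library. In the right panel the genotypes are apart only at Sp6 (27 and 21 against 14 and 16) and, in the opposite order, at Sp8 (5 and 8 against 11 and 12). In the left panel they overlap at Sp8 (11 and 23 against 11 and 12).

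Of the 90 regions within 100 kb of the 9 genes, 33 (36.7%) were in all 4 lists, against 32.0% over the genome. Regions specific to the stop cassette, in both of its lists and no wild-type one, numbered 7 (7.78%), against 10.02% of all regions, and 1 was specific to wild type (1.11%), against 0.313%. At equal length 6 of 68 regions (8.82%) were specific to the stop cassette and 1 (1.47%) to wild type, against 5.21% and 2.24% of all regions. The stop cassette share thus lay below the genome's as deposited and above it at equal length, and for wild type the order also turned. Stop cassette 2, the longest list, alone held 16 of the 90 regions (17.8%), against 22.1% over the genome. No test was made of these shares.

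The stop cassette-specific regions lay at 4 loci, none at a start of the 9 genes. The strongest, chr11:94894099-94895913, was 86.2 kb upstream of Dlx3 over an exon of Gm11513 and ranked at 81.5 and 81.2. Those described near Sp6 were at the start of Osbpl7 (chr11:96913213-96914005, 79.1 and 73.5) and over an exon of D030028A08Rik (chr11:96824864-96825372, 69.4 and 65.3). The Cir1 intron 26.4 kb downstream of Sp9 held one at chr2:73136086-73136652, at 61.5 and 47.8. The Metap1d intron held 2 that flank the shared region printed above, chr2:71298056-71298565 at 39.2 and 26.6 and chr2:71300532-71301033 at 52.4 and 27.8. The wild type-specific region, chr11:94978256-94978766, was 2637 bp upstream of Dlx3 and weak, at 20.1 and 10.5. At equal length 3 of the 7 stop cassette-specific regions kept that pattern, those at Gm11513, Osbpl7 and D030028A08Rik. Those in Metap1d and Cir1 were then in stop cassette 1 alone, and the region upstream of Dlx3 in wild type 1 alone.

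Around Dlx5 and Dlx6, none of the 8 regions within 100 kb was specific to a genotype in the lists as deposited. The shares over all regions were 10.02% for the stop cassette and 0.313% for wild type. At equal length a region within 100 kb was specific to the stop cassette, chr6:6865112-6865626 at 22.1 and 57.1, which wild type 2 held at 20.7 as deposited. The share over all regions was then 5.21%. As deposited, 1 of 19 regions (5.26%) within 500 kb was specific to the stop cassette. It lay in an intron of Shfm1 (chr6:6516847-6517384) at the bottom of the stop cassette lists, at 0.868 and 5.04. With 8 and 19 regions, such counts do not set the locus apart from the genome's share. The 500 kb window held 20, 31, 15 and 18 summits, a difference of 9 (exact permutation p = 0.333), and -2 at equal length (exact permutation p = 0.667). As a share of each list this was 0.0253%, 0.0287%, 0.0290% and 0.0263%, with overlapping groups (difference -0.000631 percentage points, exact permutation p = 0.667).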

How the data were processed

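ATAC-seq peaks were analysed in 4 libraries of limb cells, 2 per genotype. Reads were aligned to mm9 with Bowtie2 2.2.6, and Picard was used, per the submitters' processing notes. The deposited peak names mention removal of duplicates and mitochondrial reads and a mapping quality of 30. The peak caller, any control and any shift of reads for Tn5 are not given in the sources used here. Both wild-type lists use the same replicate number in their peak names, split by a sub-number, unlike the stop cassette lists; replicates were numbered by the titles. The values the authors deposited are peak scores that behave as −log10 of a q-value, with a lowest value that corresponds to 0.05 in each list. Depth is unknown, and because scores depend on it they were converted to percentiles, equal scores sharing a mean rank.

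The members and gene lists were chosen with earlier results of these data known. Transcript starts came from GENCODE M1 on NCBIM37, the build of the files, and 0 of 21 chromosomes had a summit beyond their end. Sequences were read from that genome. Summits extended by 250 bp were merged into regions when they overlapped by at least 1 bp; a region was specific to a genotype when both of its lists and neither other list held it. Distal means more than 1 kb from any annotated start. The text names all 9 genes, for each its promoter and distal region with the highest mean percentile, the 10 best distal regions in all 4 lists within 500 kb of Dlx5 and Dlx6 (there was 1), regions over coding exons of Dync1i1 and Slc25a13, and every genotype-specific region near the genes, except 1 that is not reported here. Group means were compared with an exact two-sided permutation test over 6 assignments, and shares carry 95% Wilson intervals. Lists were also reduced to 51701 peaks, cut at their median score, merged with an extension of 100 bp, taken over other windows and with each library left out. Counting was tested on simulated lists, where every planted region was recovered. Python 3.11.15, numpy 2.4.6, pandas 2.3.3 and scipy 1.17.1 were used.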

Additional observations from a re-analysis of the deposited data

How the results depend on the processing

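With 2 libraries per genotype the exact permutation test cannot reach 0.05, so keeping a direction is no evidence for a difference. Over the settings with all 4 libraries, 50 values held their direction or stayed within 1.5 times a count, 13 counts moved further and 4 differences reversed. Those 50 include the differences with the replicate number as a block, which equal the main ones by construction. Equal list length reversed the differences in promoter summits (-0.5), in the median promoter percentile (-3.00) and in summits within 500 kb of Dlx5 and Dlx6 (-2), and left 14 of the 25 named regions with their pattern. In such counts of named regions, here and below, an unchanged number of lists was required of regions neither in all 4 lists nor specific to a genotype. The share of a list near Dlx5 and Dlx6 reversed within 250 kb, to 6.63e-05 percentage points, and without single libraries. Above the median score of each list, 17 regions near the 9 genes and 3 within 500 kb of Dlx5 and Dlx6 were in all 4 lists, 0 were wild type-specific, 0 were stop cassette-specific around Dlx5 and Dlx6, and 11 named regions kept their pattern. Summits extended by 100 bp gave 18 regions specific to the stop cassette, and 3 around Dlx5 and Dlx6, as narrower intervals merge less. Within 50 kb there were 3 stop cassette-specific regions and 16 in all lists, within 200 kb 15 and 55, and within 250 kb of Dlx5 and Dlx6 0 stop cassette-specific.

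Without 1 library at a time, the differences ranged from 4 to 11 promoter summits, from 37.5 to 65.5 summits and from 0.00972 to 0.0198 percentage points within 100 kb, from 12.0 to 37.2 in the median promoter percentile, and from 3.5 to 14.5 summits and -0.00236 to 0.00110 percentage points around Dlx5 and Dlx6. In all but the share within 100 kb, the lowest value came without stop cassette replicate 2 and the highest without stop cassette replicate 1; the share around Dlx5 and Dlx6 was above 0 both times a replicate 1 was left out, at 0.00110 for the stop cassette and 0.000731 for wild type. The lone list of a genotype stands for both in these settings, so specific counts rise by construction. Stop cassette-specific regions ranged from 10 to 24 (2 to 6 around Dlx5 and Dlx6), wild type-specific ones from 2 to 3 (0 to 1), and regions in all remaining lists from 33 to 47 (5 to 7).

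The labels number the replicates 1 and 2 in both genotypes but name no shared litter or day. Deviations of same-numbered lists from their group mean correlated at 0.181 over 23894 regions, a single value that does not show pairing. With the replicate number as a block, the differences are the same by construction, at 7.5 promoter summits, 51.5 and 9 summits and 24.6 percentile points. The exact permutation p-values with this block were 0.5, the smallest it allows, and 1 for the share around Dlx5 and Dlx6.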
